A study of Bos taurus with 2 samples.

Results

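The mitochondrial ribosomal protein genes are the genes that the array annotation names MRPL or MRPS followed by a digit, and 75 of the 32429 gene names on the array met this rule. They were read by 143 of the 51282 probes, which lay on 158 of the 61657 spots that were not controls. Testis RNA of 3 Holstein Friesian crossbred bulls with 50 to 75% exotic inheritance was pooled, as was that of 3 Zebu bulls of the Tharparkar breed, all of them aged 24 months and sampled by unilateral castration. Each pool was hybridised to 1 bovine array with Cy3, so the comparison asks how testis transcripts differ between crossbred and Zebu bulls and has 1 array on each side. With no replicate arrays there is no test and no SD between animals, and the precision of every value is limited by the number of arrays.

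Mitochondria keep a ribosome of their own, which translates the few proteins that mitochondrial DNA encodes, all of them parts of the oxidative phosphorylation machinery. All proteins of this ribosome are encoded in the nucleus, made in the cytosol and imported, and they join mitochondrial rRNA into a large subunit, which forms the peptide bond, and a small subunit, which reads the mRNA. Some of them descend from bacterial ribosomal proteins and others were added in the mitochondrial lineage. Mitochondria change in shape and number as germ cells mature, and those kept in sperm form the sheath of the midpiece.

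The names split into 46 large subunit genes (MRPL) and 29 small subunit genes (MRPS). Of the genes, 30 had 1 probe, 29 had 2 and 16 had 3 or more, up to 5 for MRPL12, while 128 probes lay on 1 spot and 15 on 2. Positions below come from the annotation of the array, on HGSC Btau_3.1, which placed 69 of the genes on 25 chromosomes, gave none on X and left 12 probes unplaced. MRPL40 was not on the array under that name.

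Several results turned on which stretch of a transcript a probe reads, so parts of those probes are given first, as 30 of their 60 bases written 5′ to 3′ as the array design gives them. A pair of MRPL19 probes shared 49 bases with 1 difference, A27G, where positions count from 1 at the 5′ end of the first probe, and the base that differs is in capitals. The first lay on chromosome 11 from 45671952 to 45672011 and the second from 45671941 to 45672000, both on the minus strand.
MRPL19 first probe: ttggttactggcagaAgatatactgactct
MRPL19 second probe: ttggttactggcagaGgatatactgactct
The 4 probes of MRPS9 are shown because 3 of them read higher on the crossbred array and 1 lower. They lay on the plus strand of chromosome 11, at 9404147 to 9404206 (a), 9383245 to 9383393 (b), 9404258 to 9404314 (c) and 9406934 to 9406993 (d).
MRPS9 a: tgtttatggccatggcagtgggaagataga
MRPS9 b: tttgtttgagaagcgagcccggcccataat
MRPS9 c: ctaaaggaaatacacttgatgatacatccc
MRPS9 d: tcctccgcgtgctgtcgattttccagacag
The probes of MRPL15, on the plus strand of chromosome 14 at 21876392 to 21876451 (a) and 21875538 to 21875597 (b), are shown because their differences had opposite signs.
MRPL15 a: gctttgcaaagatctgttgtatctaaacca
MRPL15 b: acatggcagacaagaagattctgaaaccta
MRPL22 had the lowest value of the set and a single probe, on the plus strand of chromosome 7 from 65963988 to 65964047.
MRPL22: caaccggaccatcattcacgctctgtgatg

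Levels are log2 processed signals minus the 75th percentile of the array, a gene was read from its brightest probe, and differences are given as log2 values, crossbred minus Zebu. On both arrays all 75 genes were well above background. Their levels ran from -1.27 to 4.84 on the crossbred array and from -0.34 to 4.77 on the Zebu array. The replicate spot SD, 0.34 for a difference between the arrays, served as the tolerance for a single value. It comes from spots within each array, so it leaves out differences in pooling, labelling and hybridisation between the arrays, and the animals. The 15 member probes with 2 spots gave differences that lay a median of 0.064 and at most 0.33 apart between the spots.

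The mitochondrial ribosomal protein genes were centred close to 0 between the pools. Their median difference was 0.017, with the middle of the set between -0.33 and 0.33. Below 0 lay 35 genes, or 46.7%, and above it 40. Over all 24751 detected transcripts the median was -0.050, with quartiles of -0.49 and 0.46, and 52.8% lay below 0. The SD over the 75 genes was 0.57, against 0.90 over all transcripts and 0.85 over the 22842 well above background on both arrays. Within the replicate spot SD of 0 lay 40 genes, or 53.3%, against 37.3% of all transcripts and 37.9% of those 22842. No transcripts matched for level were compared. The sign of the median is not settled: it was -0.086 after quantile normalization and -0.0093 where the 75th percentile came from the probes detected in both pools. The median of all transcripts stayed between -0.077 and 0.010 under the scalings tried.

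At a log2 difference of 1.5, the threshold the study used, 1 gene was higher and 1 was lower. MRPS9 was the higher one, against 7.12% of all transcripts past the threshold in that direction. Its call ended under normexp background correction, quantile normalization, a 75th percentile from the probes detected in both pools and the mean of its probes, and under the alternatives its difference ran from 1.08 to 1.58. MRPL22 was the lower one, against 2.92% of all transcripts. At a linear fold of 1.5, 12 genes were higher and 7 lower, against 21.4% and 22.2% of all transcripts. Counted by single probes, 5 of 138 detected member probes were higher by 1.5 and 1 was lower, against 6.14% and 2.99% of all detected probes.

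**Figure D1:**
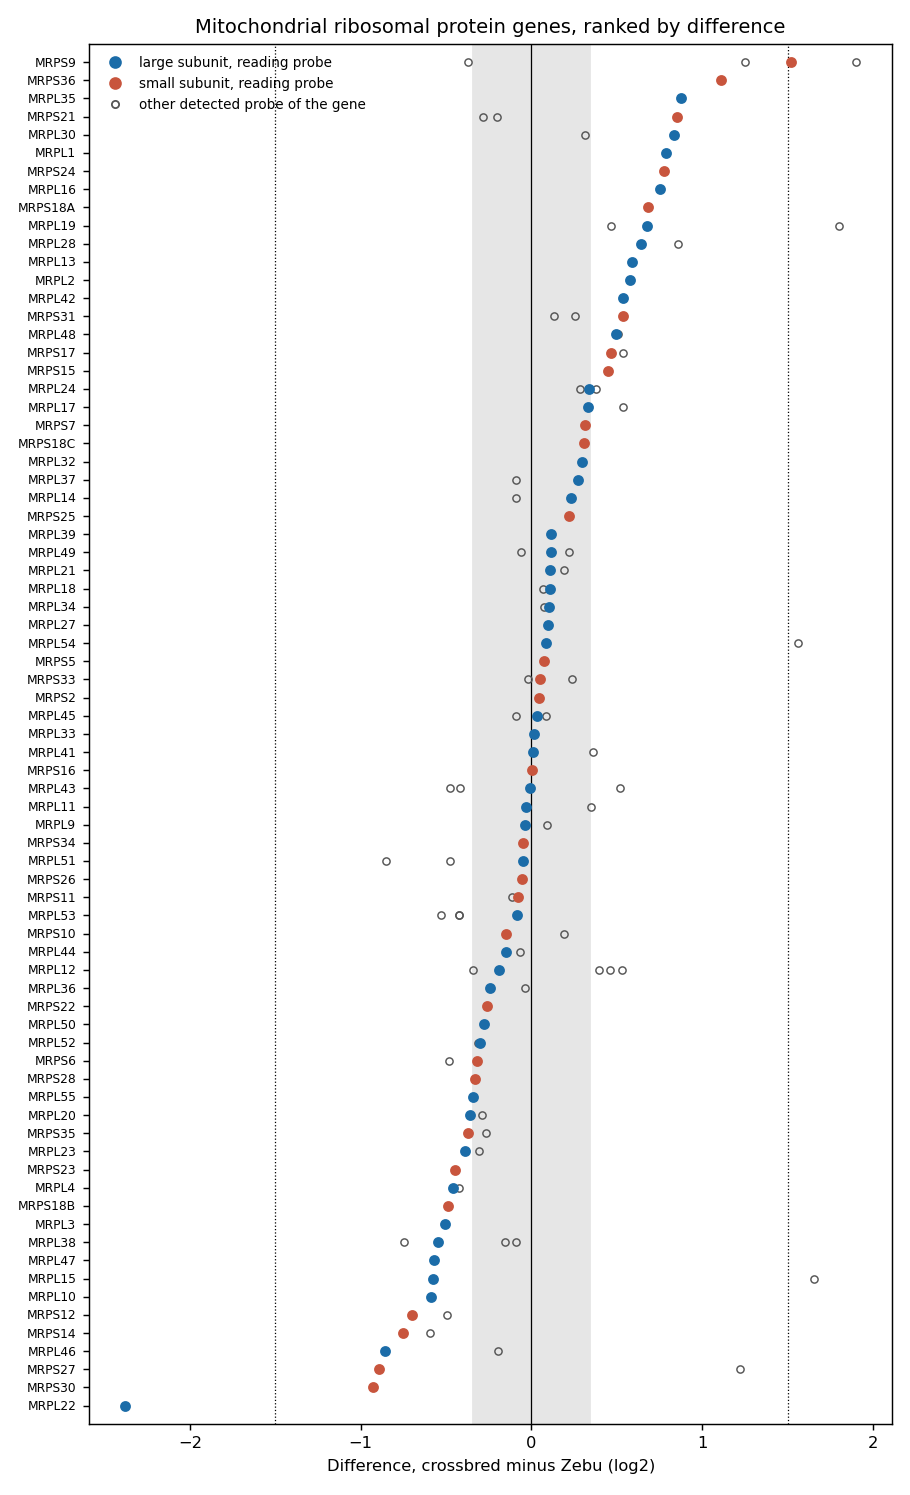
Each row is 1 of the 75 genes, ordered by its difference on the log2 scale (crossbred minus Zebu, x axis). Filled points are the brightest probe, coloured by subunit, open points are other detected probes of the gene, the grey band is the replicate spot SD of 0.34 on either side of 0 and dotted lines mark 1.5. Of the filled points, 40 lie within the band, MRPL22 lies alone at -2.38, and open points of MRPS9, MRPL19, MRPL54, MRPL15 and MRPS27 lie far from the filled one.

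MRPL22, a large subunit protein that lines the tunnel through which the new peptide leaves, had a level of 1.92 in the crossbred pool and 4.29 in the Zebu pool. The difference was -2.38, or 5.20-fold lower. The next lowest gene was at -0.93, so MRPL22 stood apart from the other 74 members. It was read by 1 probe on 1 spot, which leaves no second reading of the transcript. Around that spot, the 17 nearest spots with a value were higher on the crossbred array by a median of 1.09. Of the 6 adjacent spots, 3 were higher by 1.5 or more and 1 was lower by as much, and their part in the value of MRPL22 was not tested. Under the alternatives its difference ran from -2.51 to -2.28.

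Among the genes below 0, MRPL22 was followed by MRPS30, MRPS27, MRPL46 and MRPS14. MRPS30, which sits in the large subunit in structures despite its name, was at -1.27 in the crossbred pool and -0.34 in the Zebu pool. Its difference of -0.93 rested on 2 spots with -0.96 and -0.90. MRPS27, a protein of the pentatricopeptide repeat family, read 2.60 and 3.50, a difference of -0.89, but its second probe went the other way, as given below, and the mean of both was 0.16. MRPL46 read 2.24 and 3.10, a difference of -0.86, while its dimmer probe differed by -0.19. MRPS14, a conserved protein of the head of the small subunit, read 1.96 and 2.71, a difference of -0.75. Its other probe, detected in the Zebu pool alone, was at least 1.51-fold lower in the crossbred pool.

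At the other end, MRPS9, MRPS36, MRPL35, MRPS21 and MRPL30 had the highest differences. MRPS36 read 2.70 in the crossbred pool and 1.59 in the Zebu pool, 1.11 apart. Its product was first listed as a ribosomal protein and is now known as a subunit of the 2-oxoglutarate dehydrogenase complex. Its second probe was not well above background on either array. MRPL35 read 2.53 and 1.66, a difference of 0.88 from a single probe. MRPL30 read 3.06 and 2.22, 0.84 apart, with 0.32 at its second probe. Apart from MRPS9 and MRPL22, each gene lay within the replicate spot SD of its neighbours in this order.

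**Figure D2:**
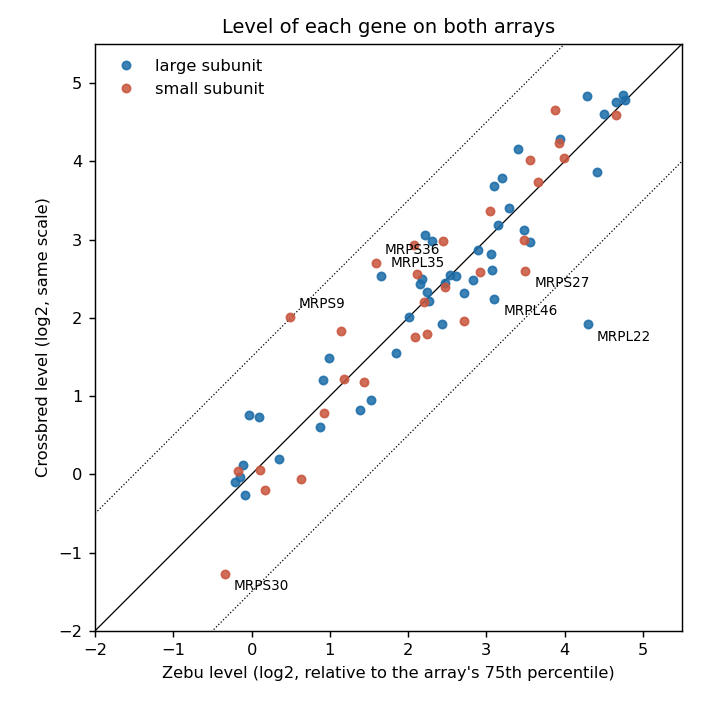
Crossbred level against Zebu level of the 75 genes, each on the log2 scale relative to the 75th percentile of its array, with the brightest probe of each gene as 1 point coloured by subunit. The solid line marks equal levels and the dotted lines differences of 1.5. MRPL22 lies below the lower line, at 1.92 against 4.29, MRPS9 lies at the upper line and the other genes lie between them.

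By subunit, the large subunit genes had a median difference of 0.026 with 21 of 46 below 0, and the small subunit genes one of 0.0024 with 14 of 29 below 0. Moving MRPS30 and MRPS18A to the large subunit and leaving out MRPS36, as structures place them, gave medians of 0.026 over 48 genes and -0.023 over 26. Large subunit proteins with bacterial relatives had a median of 0.11 over 29 genes, an SD of 0.66 and 12 genes below 0, and their median turned to -0.083 under quantile normalization. Those added in the mitochondrial lineage had a median of -0.0060 over 17 genes and an SD of 0.35, and 13 of the 17 lay within the replicate spot SD of 0. Among the MRPS names, the conserved proteins had a median of 0.057 over 18 genes, which turned to -0.023 under quantile normalization. The added ones had a median of -0.058 over 11, which fell to -0.25 under quantile normalization. By name, the conserved ones still counted MRPS18A and the added ones MRPS30 and MRPS36.

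In the large subunit, the 3 proteins of the stalk, which recruits translation factors, were all below 0 under every scaling. Averaging the probes of a gene, however, put MRPL11 at 0.16 and MRPL12 at 0.17. The MRPL12 mean takes in probes annotated to other transcript records than that of its brightest probe. MRPL10 differed by -0.59 on both of its probes, with 2.97 in the crossbred pool and 3.56 in the Zebu pool for the brighter one. MRPL11 differed by -0.033, and its other probe by 0.35. MRPL12 differed by -0.19, and its other probes fell into 2 sets, given below. Only MRPL10 lay beyond the replicate spot SD.

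The 5 listed proteins close to the peptidyl transferase centre, where the peptide bond forms, did not move together. MRPL16 read 4.16 in the crossbred pool and 3.41 in the Zebu pool, 0.75 apart, and MRPL2 differed by 0.58. MRPL3 and MRPL4 differed by -0.50 and -0.46, and the second probe of MRPL4 gave -0.42. MRPL27 differed by 0.096. Their median was also 0.096, and it turned to -0.087 under quantile normalization.

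Around the tunnel exit, where the new chain meets the inner membrane, the 8 listed genes had 4 values on each side of 0 and a median of -0.057. Beside MRPL22, MRPL47 differed by -0.57 with 2 spots at -0.73 and -0.41. MRPL23 differed by -0.39 and MRPL44 by -0.15. MRPL45, which anchors the ribosome at the membrane, differed by 0.035, -0.093 and 0.087 on its 3 probes. MRPL39, MRPL17 and MRPL24 differed by 0.12, 0.33 and 0.34, and the 3 probes of MRPL24 spanned 0.28 to 0.38.

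For the central protuberance, at the top of the large subunit, the 5 listed genes on the array had a median of -0.30, which stayed between -0.34 and -0.27 under the scalings. MRPL46 differed by -0.86, MRPL38 by -0.55 and MRPL52 by -0.30. MRPL18 differed by 0.11 and MRPL48 by 0.50, and the second probe of MRPL48 also gave 0.50. The listed genes of the protuberance therefore lay on both sides of 0.

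In the small subunit, the list for the head held only 5 conserved proteins, with values from -0.75 for MRPS14 to 1.52 for MRPS9. Between them were MRPS10 with -0.15, MRPS7 with 0.31 and MRPS24, which read 4.65 in the crossbred pool and 3.87 in the Zebu pool, with 0.78. The 10 listed genes of the body and platform, also conserved, had a median of 0.038, with 4 below 0, and the median turned to -0.063 under quantile normalization. Within this group MRPS12, which takes part in decoding, differed by -0.70 and by -0.50 on its other probe. MRPS21 differed by 0.85, MRPS17 by 0.46 and MRPS15 by 0.45, while MRPS16 and MRPS5 differed by 0.0024 and 0.073.

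Different probes of a gene share a target and are not replicates, but they show how far a value depends on the stretch read. Of the member genes, 43 had at least 2 detected probes, 106 in all, and the median range between the probes of a gene was 0.22. Over the 8959 genes of the whole array with at least 2 detected probes it was 0.43. The range was above 1 for 6 member genes, or 14.0%, against 19.7% of the genes on the array. All probes had the same sign for 29 member genes, or 67.4%, against 66.1%.

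Genes with many probes gave both narrow and wide ranges. The 4 probes of MRPS33 differed by -0.018 to 0.24. The 4 probes of MRPL53 differed by -0.53 to -0.084, all lower on the crossbred array. The 4 probes of MRPL38 were also all below 0, at -0.75 to -0.093. The 4 probes of MRPL43 lay on both sides, at 0.52, -0.0060, -0.42 and -0.48.

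The 6 genes with a range above 1 were MRPS9, MRPL15, MRPS27, MRPL54, MRPL19 and MRPS21. The head protein MRPS9 had the widest. Its probe a read 2.01 in the crossbred pool and 0.49 in the Zebu pool, 1.52 apart. Probe b read 0.18 and -1.07, and was 2.38-fold higher on the crossbred array. Probe c read -0.058 and -1.96, a difference of 1.90. Probe d, the only one with 2 spots and the one farthest along the gene, read -0.78 and -0.41, a difference of -0.37, for which the spots gave -0.50 and -0.25. So 3 of the probes named MRPS9 were higher on the crossbred array and d was slightly lower. The mean over the 4 probes, 1.08, did not pass the threshold. Probes a and b were annotated to the same transcript record, and c and d each to a different one. Whether d reads the same transcript as the others was not tested. Beside the spot of probe b, 3 of the 6 adjacent spots were also higher by 1.5 or more, and beside the spots of a and c none was.

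MRPL15, a large subunit protein with a bacterial relative, read 0.95 in the crossbred pool and 1.53 in the Zebu pool at probe a, a difference of -0.58. At probe b it read 1.94 and 0.28, a difference of 1.65. The 2 probes thus ordered the pools in opposite ways, with a mean of 0.54. MRPL54 read 2.33 and 2.25 at its brighter probe, a difference of 0.087, and -0.047 and -1.61 at the other, a difference of 1.56. MRPS27 differed by -0.89 at its bright probe, which had 2 spots at -0.94 and -0.85, and by 1.22 at a dim probe that read -3.71 and -4.93. MRPS21 differed by 0.85 at its brightest probe, with 2.92 and 2.07, and by -0.29 and -0.20 at the other 2.

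**Figure D3:**
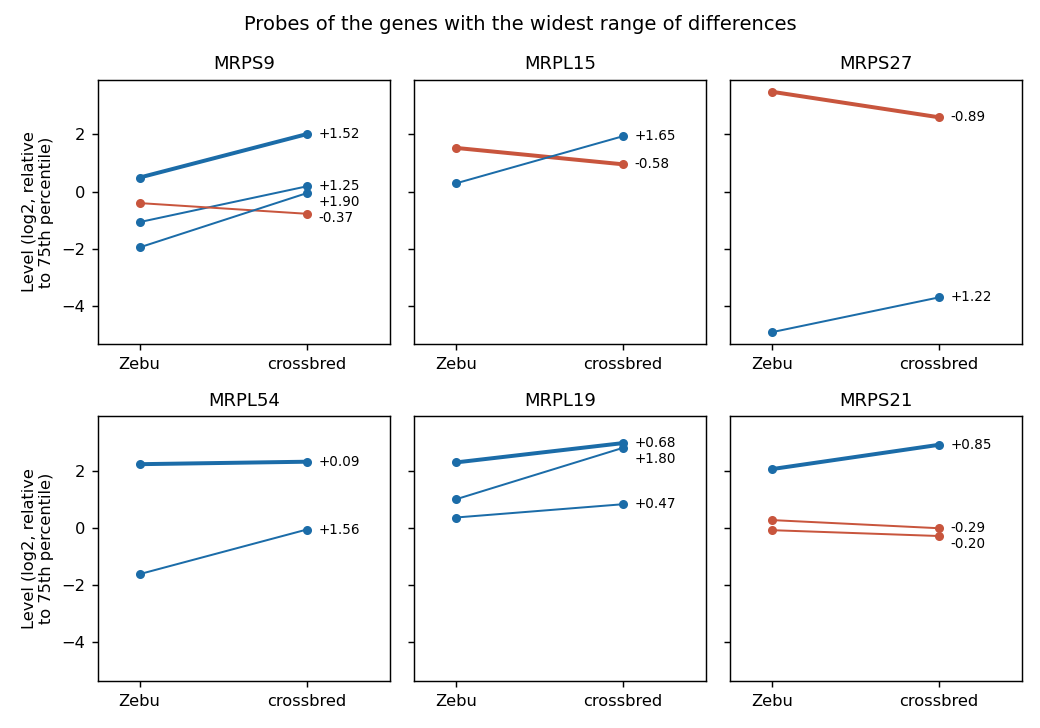
Each panel is a gene, each line a detected probe joining its Zebu level to its crossbred level (log2, relative to the 75th percentile of the array), with the difference printed beside it. Thick lines mark the brightest probe, blue lines probes that were higher on the crossbred array and red lines probes that were lower. In MRPS9, MRPL15, MRPS27 and MRPS21 lines run in both directions.

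MRPL19, another large subunit protein with a bacterial relative, differed by 1.80 at the first probe shown above and by 0.68 at the second. The first read 2.82 in the crossbred pool and 1.01 in the Zebu pool, and the second 2.98 and 2.31. Both probes were higher in the crossbred pool, by unequal amounts. Another probe of MRPL19, elsewhere in the transcript, differed by 0.47 on 2 spots that gave 0.43 and 0.51. The spot of the first probe had 2 of 6 adjacent spots higher by 1.5 or more, and that of the second had none.

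Other overlapping probes of a gene give the scale for this pair. Among the members, 7 pairs of probes shared 37 to 57 identical bases, and the differences within a pair lay 0.00085 to 0.15 apart, with a median of 0.062. Over the whole array, 677 such pairs lay a median of 0.12 apart, 1.62% of them were more than 1 apart, and 7 were at least as far apart as the MRPL19 probes. With 1 differing base in an overlap of at least 30, 194 pairs lay a median of 0.14 apart and 3.09% were more than 1 apart. The MRPL19 pair, 1.13 apart, was among the 4 of these 194 pairs that were at least that far apart.

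**Figure D4:**
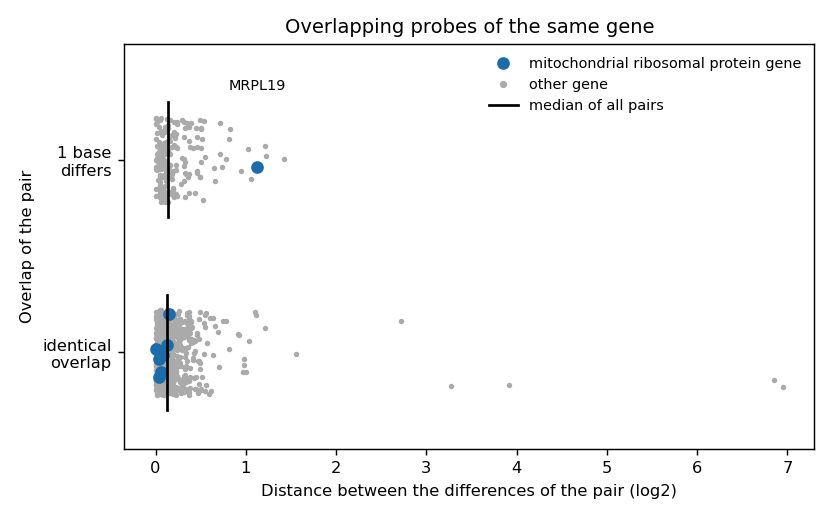
Pairs of probes of the same gene that overlap by at least 30 bases, with the distance between their 2 differences (log2, x axis), for identical overlaps and for overlaps with 1 differing base (rows; points are spread vertically for clarity). Blue points are pairs of mitochondrial ribosomal protein genes, grey points those of other genes and black bars the medians, 0.12 and 0.14. The 7 identical member pairs lie at 0.15 or below and the MRPL19 pair lies at 1.13.

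The 5 probes that carry the name MRPL12 fell into 2 sets by position. A pair at 52607527 to 52607690 on chromosome 19, which overlapped by 53 bases, differed by -0.19 and -0.34. Another pair, at 52598210 to 52599343 on the same strand, differed by 0.46 and 0.53, and an unplaced probe by 0.40. The first bases of 1 probe from each pair are shown, because the signs follow the position.
MRPL12 first pair: aacctcgtccaggcaaagaagctggtggaa
MRPL12 second pair: ttcactcactttatcgccagcttcatagcg
These pairs were annotated to different transcript models. In the ARS-UCD2.0 gene table the neighbours of MRPL12 are SLC25A10, which had no probe of that name on the array, and HGS. Which gene the second pair reads was not tested.

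On the array layout 2 areas had been marked. The dark one, of the crossbred array, had a median difference of -1.37 over 408 spots. The bright one, for which no array was named, had a median difference of 1.29 over 100 spots. Each held 1 member spot. The brighter probe of MRPL34 lay in the dark area and differed by 0.11, and its other probe, elsewhere, by 0.071. A probe of MRPL38 lay in the bright area and differed by -0.16, and the probe that overlapped it by 37 identical bases, elsewhere, by -0.093. These 2 pairs of probes lay within the replicate spot SD of each other, while the other 2 probes of MRPL38, also outside the area, differed by -0.55 and -0.75 and lay beyond it. Over the 136 detected probes outside these areas the median was 0.012, as over all 138.

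By base composition the probes held 35 to 60% G and C, with a median of 45%. Member probes under 40% had a median difference of -0.043 over 42 probes, against -0.22 over all probes of that class. Those from 40 to 50% had 0.071 over 71 probes, against -0.058. Those of 50% or more had 0.042 over 25, against 0.066. By chromosome, chromosomes 11 and 19 held the most members. The 9 genes on chromosome 11 ran from -0.084 to 1.52, with a median of 0.073 and MRPS9, MRPL35, MRPL30 and MRPL19 the highest. Among the others there, MRPL41, MRPL33, MRPS2 and MRPS5 differed by 0.0071, 0.017, 0.042 and 0.073, within the replicate spot SD of 0. The 6 genes on chromosome 19 ran from -0.59 to 0.096, with a median of -0.32. All transcripts of these chromosomes were not compared, so a pattern by chromosome was not tested.

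Other genes of mitochondrial protein synthesis lay below 0 in 63.1% of cases, against 52.8% of all transcripts. The 65 detected genes of the remaining lists had a median of -0.23, with 41 below 0, 1 higher by 1.5 and none lower by 1.5, and the median lay between -0.27 and -0.17 under the alternatives. Mitochondrial ribosomal proteins with other names had a median of -0.19 over 7 genes, from -1.08 for GADD45GIP1, a large subunit protein, to 0.56 for DAP3, a small subunit protein. The translation factors had a median of -0.20 over 14, with the initiation factor MTIF3 at 0.88 and the recycling factor GFM2 at -0.81. Of the genes that charge the tRNAs, 16 of 20, or 80%, were below 0, with a median of -0.37. This list holds the aminoacyl-tRNA synthetases and also QRSL1, PET112 and GATC, subunits of the glutamyl-tRNA amidotransferase, with -0.65, -0.58 and 0.81. The assembly factors had a median of -0.068 over 24 genes, which was 0.0022 at the highest under the scalings, with the rRNA methyltransferase NSUN4 at 1.64 and the GTPase GTPBP10 at -1.26. Of the 4 detected genes of mitochondrial transcription, TFAM read 4.63 in the crossbred pool and 2.87 in the Zebu pool, 1.76 apart. Its product packs mitochondrial DNA and takes part in starting its transcription. The other 3 were POLRMT with 0.27, TFB2M with -0.41 and MTERF with -0.84.

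Ribosomal proteins of the cytosol, which serve the translation of nuclear transcripts, lay mostly below 0. Of 83 detected genes, 72, or 86.7%, were below 0, against 52.8% of all transcripts. Their median was -0.30, and it lay between -0.43 and -0.26 under the alternatives. Past a linear fold of 1.5, 22 of the 83 were lower and 4 higher, against 22.2% and 21.4% of all transcripts, so the lower share was near that of all transcripts.

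Cell type markers differed between the pools. All 8 spermatid markers were above 0, with a median of 1.69 and a range from 0.36 for PRM1 to 2.92 for SPEM1. All 6 spermatogonial, 6 Sertoli, 6 Leydig and 5 peritubular markers were below 0, with medians of -0.89, -1.09, -0.79 and -0.77. The Leydig marker LHCGR was at -0.10, within the replicate spot SD of 0, and under cyclic loess 5 of the 6 Leydig markers were below 0. Spermatocyte markers had a median of 0.20 over 4 genes, endothelial markers 0.084 over 5, and macrophage markers 0.10 over 4. The 1 detected red blood cell marker, HBA, differed by -2.15. The part of the cell types in the values of the ribosomal proteins was not tested, and in bulk tissue fewer cells of a type and less RNA per cell cannot be told apart.

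**Figure D5:**
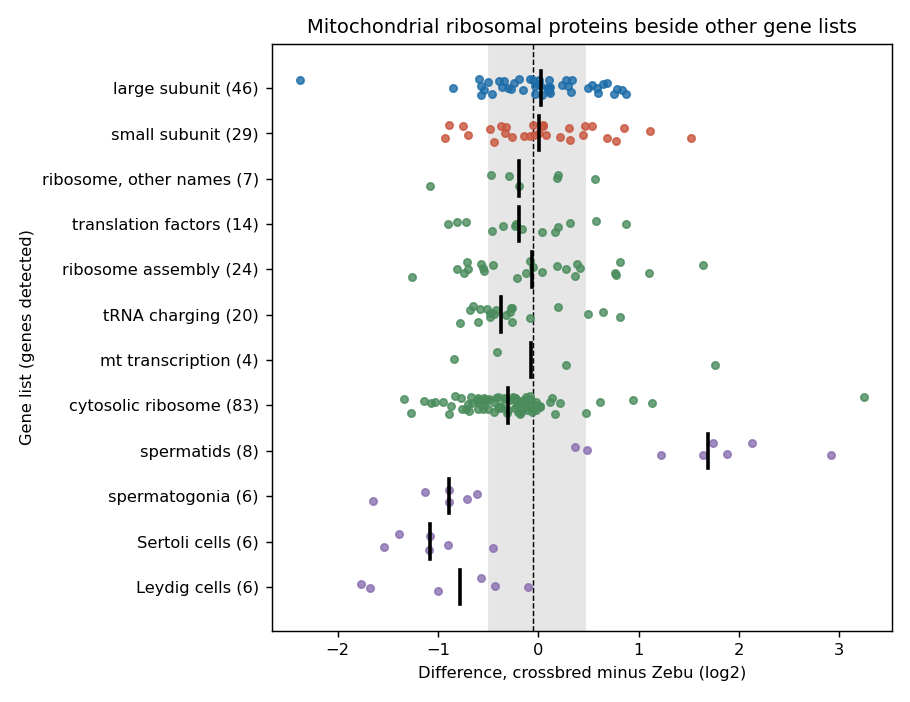
Differences (log2, crossbred minus Zebu, x axis) of the detected genes of each list, with 1 point a gene and a black bar at the median; the dashed line and the grey band are the median and quartiles of all detected transcripts. Both subunits are centred close to 0, at 0.026 and 0.0024, the cytosolic ribosome at -0.30, spermatid markers at 1.69 and the markers of spermatogonia, Sertoli and Leydig cells at -0.89, -1.09 and -0.79.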

How the data were processed

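The values used are the processed intensities of Agilent Feature Extraction that the authors deposited, background-subtracted per spot, with marks for outliers and for spots well above background. The authors also deposited log2 values per probe, shifted by the 75th percentile of each array. Here, processed intensities were put on the log2 scale, spots sharing a probe were averaged, and each array's 75th percentile across non-control probes was taken off. Control spots and 13 outlier spots were left out, and 0 spots were saturated. A gene was read from its brightest probe, and a difference counted as past a threshold if its brighter side was well above background. A probe that was dim on 1 array was given its bound. Of the spots, 72.0% (crossbred) and 74.3% (Zebu) were well above background.

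Genes named with values were those that differed by 1 or more, those with a spot in a marked area, the 5 highest and 5 lowest, the 5 with most probes, the 5 with the widest range between probes, and genes of the role lists. The members and lists were chosen with earlier results of these data known. All 75 names matched the ARS-UCD2.0 gene table. Exon, intron and UTR positions were not analysed here, since no genome of the array's build was used. No test was run, and the scripts were tested on simulated data. The alternatives were other background correction, scalings, filters, probes of a gene and spots, with numpy 2.4.6, pandas 2.3.3, R 4.3.3 and limma 3.58.1.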

Additional observations from a re-analysis of the deposited data

How the results depend on the processing

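The median of the set changed by more than its tolerance under quantile normalization, to -0.086 (-0.086 in the large subunit and -0.083 over probes outside the marked areas), and where all probes of a gene were averaged, to 0.080 (0.090 in the large subunit). The count of genes higher by 1.5 was 0 after normexp background correction, with the 75th percentile of probes detected in both pools, after quantile normalization and with all probes of a gene averaged, and MRPL22 was the gene lower by 1.5 in each. With every probe counted by itself, 67 of 138, or 48.6%, lay below 0, against 54.3% of all detected probes. Of the 138, 5 were higher by 1.5, and 19 were higher and 12 lower by a linear fold of 1.5. Quantile normalization left 11 genes lower by a linear fold of 1.5. The median of cytosolic ribosomal protein genes was -0.42 after quantile normalization, -0.43 after cyclic loess, -0.39 with probes averaged and -0.38 with every probe by itself, and that of other mitochondrial translation genes was -0.17 after cyclic loess. With no filter on dim probes, the median range within a gene was 0.34. The cause of these changes was not tested. Of 528 values of 48 named genes, 522 moved by less than the replicate spot SD. The other 6 all came from averaging the probes of MRPS9, MRPL15, MRPS27, MRPL54, MRPS21 and MRPL12. Averaging turned the sign of 3 of these 6, MRPS27 from -0.89 to 0.16, MRPL15 from -0.58 to 0.54 and MRPL12 from -0.19 to 0.17. For MRPL12 the mean takes in probes annotated to other transcript records than that of its brightest probe. No paired analysis was possible because each group has 1 array. Depth cannot separate animals here, since 3 bulls share each pool.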
